A study of Mus musculus with 8 samples.

Results

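Ccl21a-high adult mTEC, the subset of medullary thymic epithelial cells (mTEC) often called mTEC I, were chosen by their reads of 4 genes in the 2 adult mTEC libraries. A cell was a member when Ccl21a made up at least 0.5% of its unique molecular identifiers (UMIs, each standing for 1 captured RNA molecule), no Aire UMI was read, and Top2a and Mki67 together gave fewer than 3 UMIs. Cells in which mitochondrial transcripts passed 5% of UMIs, or in which over 5000 genes were detected, were set aside first. The rule found 1190 cells among 7201 adult mTEC, and 25750 cells were kept over the 8 libraries of the series. Both adult mTEC groups came from the thymus of wild-type C57 B6 (CD45.2) mice with no transgene or treatment, and both were sorted as live EpCAM+ CD45- Ly51- UEA-1+ cells before droplet sequencing from the 3' end. Whether the cells of a library came from 1 mouse or from several pooled mice is not given in the sources used here, so p-values measure the spread between these 2 libraries.

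CCL21 is a chemokine that binds CCR7 and draws positively selected thymocytes from the cortex into the thymic medulla. mTEC also present self antigens: cells with the regulator AIRE transcribe genes that are otherwise specific to peripheral tissues, and developing T cells that react to them are deleted or become regulatory T cells. Keratins 5 and 14 are the keratin pair of basal epithelial layers, and mTEC that make CCL21 are known to carry them.

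The share of Ccl21a-high cells differed between the libraries. In adult mTEC replicate 1, 613 of 1586 cells met the rule (38.7%, 95% exact interval 36.2 to 41.1%). In adult mTEC replicate 2, 577 of 5615 cells met it (10.3%, 9.49 to 11.1%). The intervals cover counting error only, and 2 libraries of the same group do not show which share is nearer to that of the thymus. Over all adult mTEC, the other cells were 4464 with an Aire UMI (Aire-positive resting mTEC), 920 without Aire and with Ccl21a under the threshold (Ccl21a-low resting mTEC), and 627 with 3 or more UMIs of Top2a and Mki67 (cycling mTEC).

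The values that chose the members are given as a description. The median member of replicate 1 held 1.91% of its UMIs in Ccl21a, with a range of 0.501 to 4.91%. In replicate 2 the median was 1.49% and the range 0.505 to 4.10%. All other mTEC had medians of 0.0224% and 0.0595%, and few cells lay near the threshold. In replicate 1, 6 cells had between 0.4 and 0.5% and 7 had between 0.5 and 0.6%, counted among cells that met the other terms of the rule. In replicate 2 these numbers were 19 and 17.

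**Figure D1:**
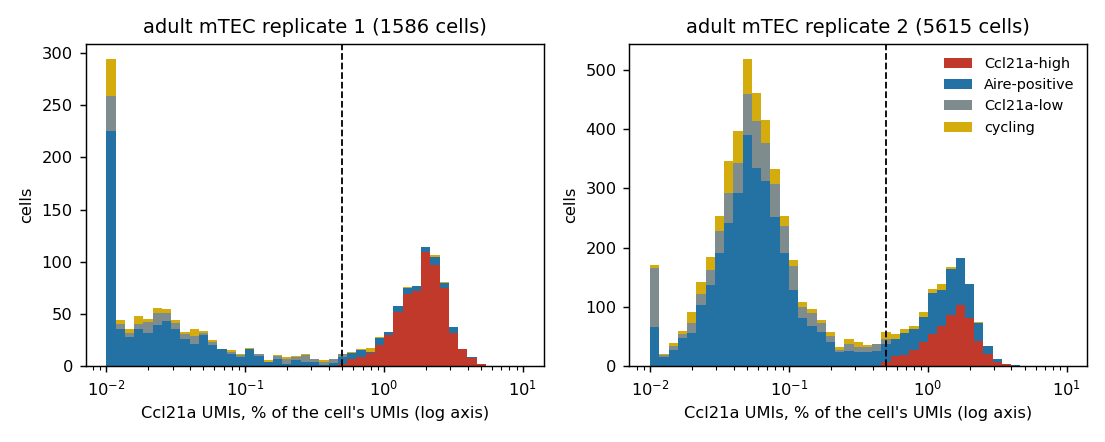
Number of cells (y axis) by the percentage of a cell's UMIs that were Ccl21a (x axis, log scale) in each adult mTEC library, stacked by class of cell, with the threshold of 0.5% as a dashed line and cells below 0.01% placed in the leftmost bar. A peak of cells lies on each side of the threshold in both libraries, and above the threshold replicate 2 holds many Aire-positive cells while replicate 1 holds few.

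The Aire term of the rule removed different numbers of cells from the 2 libraries. Of the 681 resting cells of replicate 1 with Ccl21a at or above the threshold, 90.01% had no Aire UMI, 6.90% had 1 and 3.08% had 2 or more. Of the 1132 such cells of replicate 2, 51.0% had none, 30.0% had 1 and 19.0% had 2 or more. At 5 or more Aire UMIs the libraries were closer, with 1.17% and 1.86%. Below the threshold, 74.2% of resting cells in replicate 1 and 64.8% in replicate 2 had 2 or more. Without the Aire term the share of Ccl21a-high resting cells was 42.9% in replicate 1 and 20.2% in replicate 2. The part of free RNA in these low Aire counts was not tested.

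Members carried fewer UMIs per cell than the rest. Their median was 7208 UMIs and 2469 genes in replicate 1 and 7809 UMIs and 2629 genes in replicate 2. All other mTEC had medians of 11876 UMIs and 3186 genes and of 12045 UMIs and 3227 genes. Ccl21a-low resting mTEC alone had 7518 UMIs and 2507 genes and 6152 UMIs and 2209 genes, so in replicate 2 they lay below members. The terms on Aire, Top2a and Mki67 count UMIs, and their part in these differences was not tested. Thinned to 4000 UMIs per cell, members had a median of 1683 genes in replicate 1 (594 members deep enough) and 1672 in replicate 2 (552 members). Aire-positive resting mTEC then had 1628 and 1610, Ccl21a-low resting mTEC 1691 and 1650, and cycling mTEC 1685 and 1625, so members detected more genes than Aire-positive cells at equal depth although they detected fewer in the whole data. Median mitochondrial shares were 3.29% and 2.39% in members and 3.03% and 2.23% in other mTEC. The libraries shared 20 cell barcodes, and each adult mTEC library shared between 0 and 84 with any other library.

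Nearly all Ccl21 reads were assigned to Ccl21a. The gene lies on the minus strand at chr4:42772860-42773993 (GRCm38), in a cluster of near-identical copies. Ccl21a had 117366 UMIs in replicate 1 and 212973 in replicate 2, and the copy Gm21541, on the plus strand at chr4:41903610-41904743, had 457 and 573. A further copy, which the 2 gene lists give under different symbols, had 559 and 81. The transcripts of Ccl21a and Gm21541, of 870 bases each, differed at 6 positions (99.31% identity), 2 of them in the 402 bases of coding sequence. The sequence of the further copy was not compared. The coding differences were T159A and C269T, with the Ccl21a base first and positions counted from the first base of the transcript. The windows around them show how little separates these 2 copies, with the differing base in capitals. The first window lies at chr4:42773735-42773759 in Ccl21a and at chr4:41903844-41903868 in Gm21541, and the second spans an exon junction.
Ccl21a, T159A: tgatggagggggTcaggactgctgc
Gm21541, T159A: tgatggagggggAcaggactgctgc
Ccl21a, C269T: caatcctgttctCaccccggaagca
Gm21541, C269T: caatcctgttctTaccccggaagca
Reads from the copies that do not cover a differing base cannot be told apart, so Ccl21a here may include some reads of its copies.

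To compare members with other cells, the UMIs of each class were summed within each library and tested across libraries with edgeR's quasi-likelihood test, with library as a term and p-values adjusted by Benjamini-Hochberg over all genes tested. Levels are given as CPM (a gene's UMIs per 1000000 summed UMIs), with replicate 1 first. Of 15029 genes tested against all other mTEC, 1960 (13.04%) were higher in members and 3151 (20.97%) were lower at an adjusted p under 0.05, and 5110 of these 5111 genes had the same sign in both libraries. By at least 4-fold, 409 were higher and 2060 lower. The median log2 fold change over all genes was -0.08. This fit holds 4 sums and has 1 residual degree of freedom, and many genes share its smallest adjusted p of 0.0172. With so many genes called, a single call says little about the members, and the levels and the counts over lists carry the description.

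The 3 marker genes of mTEC I that the rule did not use were all higher in members. Krt5 stood at 1551 and 1220 CPM in members and at 234 and 275 CPM in other mTEC, a log2 fold change of 2.49 (SE 0.20, adjusted p = 0.0172). Krt14 stood at 2667 and 2001 CPM against 467 and 514 CPM (log2 fold change 2.29, SE 0.19, adjusted p = 0.0172). Ccl11, a chemokine for eosinophils, stood at 1186 and 274 CPM against 49.8 and 28.5 CPM (log2 fold change 3.96, SE 0.40, adjusted p = 0.0172). For each of these genes both libraries of members lay above both libraries of other mTEC. Ccl11 differed most between the libraries of members, while Krt5 and Krt14 were similar in them. The label mTEC I was thus matched by its other markers.

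Thinned to 4000 UMIs, Krt5 was read in 96.5% of members of replicate 1 (exact interval 94.7 to 97.8%) and 93.8% of replicate 2 (91.5 to 95.7%). These intervals cover counting error only. In Aire-positive resting mTEC the shares were 22.3% and 38.8%. Before thinning, that class also held resting cells with Ccl21a at or above the threshold. There were 47 and 340 of these with 1 Aire UMI, and 21 and 215 with 2 or more. Krt14 was read in 91.9% and 92.0% of members, against 59.8% and 68.7% of Aire-positive cells. Ccl11 was read in 52.7% and 28.3% of members and in 5.40% and 5.83% of Aire-positive cells, so it marked only some of the members at this depth. Before thinning, Krt5 was read in 97.7% and 96.2% of members. Psmb11, a proteasome subunit of cortical TEC that mTEC should lack, was read in 0.337% and 1.99% of members and in 1.11% and 2.46% of Aire-positive cells. It is nearly absent from these libraries, so these shares give no background for abundant genes, and Ccl21a itself was read in 61.8% and 89.3% of Aire-positive cells. The part of free RNA in the shares of Krt5, Krt14 and Ccl11 was not tested.

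**Figure D2:**
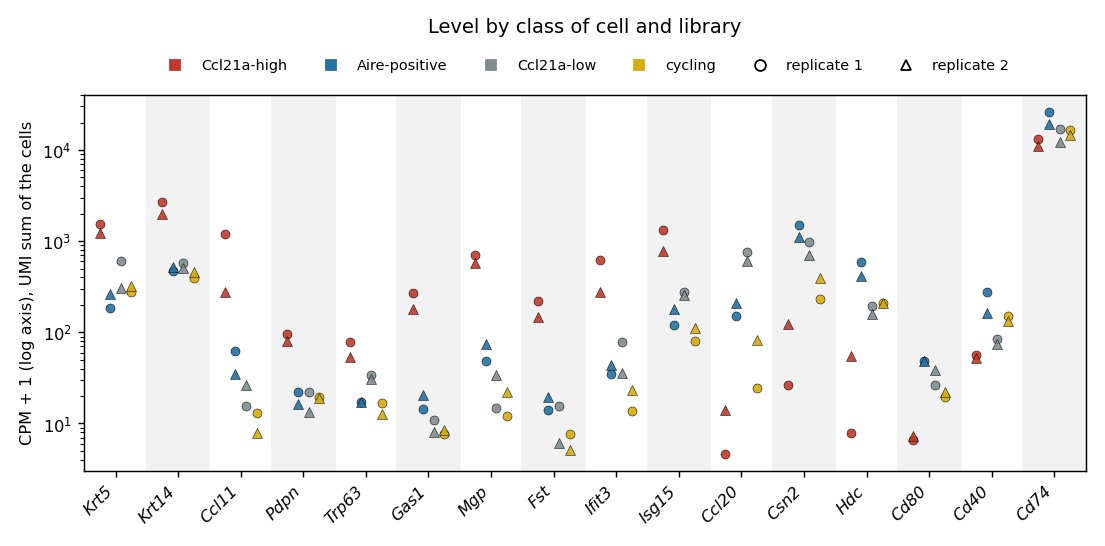
Summed level (y axis, CPM + 1, log scale) of 16 genes in each class of adult mTEC, with circles for replicate 1 and triangles for replicate 2. Ccl21a-high cells lie above every other class in both libraries for Krt5, Krt14, Ccl11, Pdpn, Trp63, Gas1, Mgp, Fst, Ifit3 and Isg15, and below every other class for Ccl20, Csn2, Hdc, Cd80 and Cd40.

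Among genes with an average log2 CPM above 5 and outside the marker lists of non-epithelial cells, the 10 with the largest increase were led by Gas1, a membrane protein that binds Hedgehog ligands, at 268 and 178 CPM in members and 11.96 and 16.3 CPM in other mTEC (log2 fold change 3.99, SE 0.33, adjusted p = 0.0172). Ccl11 followed. Mgp, matrix Gla protein, stood at 711 and 578 CPM against 38.6 and 61.5 CPM (3.76, SE 0.31). Fst, follistatin, a secreted binder of activins, stood at 222 and 147 CPM against 12.2 and 15.2 CPM (3.76, SE 0.30). Scx, a transcription factor best known from tendon, stood at 127 and 126 CPM against 8.62 and 14.7 CPM (3.51, SE 0.27). Tagln and Myl9, which encode proteins of the contractile actin cytoskeleton, were higher by log2 fold changes of 3.53 and 3.52. Sult5a1 (3.65) and the interferon-induced Ifit3b (3.60) and Ifit3 (3.53) complete the set. The 10 were chosen among genes past the threshold and with the same sign in both libraries, so neither trait is a further result. Ifit3 and Ifit3b are close paralogs, and how reads were split between them is uncertain.

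Basal keratins did not all move one way. Of 8 genes tested in the list of basal keratins and p63, 4 were higher, 1 was lower and 3 were not called (median log2 fold change 0.71). Trp63, which encodes the transcription factor p63 of stratified epithelia, stood at 76.6 and 53.2 CPM in members against 17.7 and 16.7 CPM (1.93, SE 0.19, adjusted p = 0.0172). Krt16, a keratin of activated epidermis, fell by 1.87 on the log2 scale, from 37.3 and 52.3 CPM in other mTEC to 11.3 and 12.2 CPM in members. Krt15 stood at 27.3 and 18.3 CPM in members and 24.1 and 31.9 CPM in others, and the groups overlapped (adjusted p = 0.54). Among 6 simple keratins, Krt7 (1.60) and Krt18 (0.83) were higher, Krt19, Krt20 and Krt23 were lower and Krt8 was not called. The call of Krt18 was lost with no library term.

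Most genes for attachment to the basement membrane were higher in members. Of 19 genes tested in the list of hemidesmosome and basement membrane components, 15 were higher in members, 1 was lower and 3 were not called, with a median log2 fold change of 1.58. Lamb3 and Lama3 encode chains of laminin-332, which anchors basal keratinocytes. Lamb3 stood at 54.9 and 73.2 CPM in members against 7.36 and 14.5 CPM (2.64, SE 0.22). Lama3 stood at 61.1 and 37.0 CPM against 7.53 and 9.16 CPM (2.53, SE 0.32). Pdpn, podoplanin, a surface glycoprotein of mTEC near the junction with the cortex, stood at 95.2 and 79.5 CPM against 20.7 and 15.47 CPM (2.33, SE 0.13). Lamb1 was higher by 2.26. The lower gene was Nid1, nidogen, at 1.07 and 0.420 CPM against 11.2 and 5.72 CPM, named after its values were seen.

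Chemokines moved in both directions. Of 24 chemokine genes and chemokine-binding receptors tested, 7 were higher in members, 11 were lower (3 with no library term) and 6 were not called (median -0.97). Cxcl12, the ligand of CXCR4, stood at 47.2 and 49.8 CPM in members and 8.28 and 7.83 CPM in other mTEC (2.64, SE 0.16, adjusted p = 0.0172). Ccl20, which attracts CCR6-bearing cells, stood at 3.63 and 13.03 CPM against 188 and 222 CPM (-4.70, SE 0.39, adjusted p = 0.0172). Ccl25, the CCR9 ligand of the thymus, stood at 18.4 and 53.4 CPM against 311 and 335 CPM (-3.28, SE 0.36). Xcl1, the XCR1 ligand known to be made by Aire-expressing mTEC, stood at 0.427 and 4.41 CPM against 22.1 and 38.8 CPM (-3.73, SE 0.48). Ccl22 (-3.47), Ccl9 (-3.29) and Ccl6 (-2.76) were also lower. In each of these lower genes the level in members was higher in replicate 2 than in replicate 1.

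Ccl19, the second ligand of CCR7, did not follow Ccl21a. It stood at 139 and 171 CPM in members and at 180 and 220 CPM in other mTEC, a log2 fold change of -0.32 (SE 0.11, adjusted p = 0.0849). Against Ccl21a-low resting mTEC, at 106 and 140 CPM, the log2 fold change was 0.50 (adjusted p = 0.0564). Neither difference passed the threshold, and the members of replicate 1 lay at the level of the Ccl21a-low cells of replicate 2.

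Among 19 cytokine and growth factor genes tested, 4 were higher, 6 lower and 9 not called (median -0.44), against 13.04% higher and 20.97% lower over all genes. Il7, which thymocytes need for survival and growth, stood at 186 and 155 CPM in members against 65.0 and 47.2 CPM (1.66, SE 0.12, adjusted p = 0.0172). Lifr, a receptor subunit for leukemia inhibitory factor, stood at 219 and 143 CPM against 23.4 and 21.6 CPM (3.02, SE 0.20). Fgf21 stood at 166 and 125 CPM against 1149 and 562 CPM (-2.43, SE 0.17). Igf1, insulin-like growth factor, stood at 5.55 and 39.7 CPM against 78.1 and 173 CPM (-2.77, SE 0.41). Of 13 genes in the list of insulin-like growth factor binding and matricellular proteins, 6 were higher and 3 lower (median 0.98). Igfbp4 stood at 311 and 279 CPM against 27.0 and 43.8 CPM (3.14, SE 0.28), while Igfbp6 (-3.07) and Spp1 (-3.93) were lower.

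Interferon-stimulated genes were higher almost throughout. Of 17 genes tested, 16 were higher in members, none was lower and 1, Ifi27, was not called, with a median log2 fold change of 1.98. Isg15, a ubiquitin-like modifier, stood at 1320 and 770 CPM in members and 129 and 174 CPM in other mTEC (2.80, SE 0.36, adjusted p = 0.0184). Iigp1, an immunity-related GTPase, stood at 936 and 577 CPM against 98.9 and 102 CPM (2.92, SE 0.25, adjusted p = 0.0172). Gbp2, a guanylate-binding protein, stood at 266 and 106 CPM against 24.1 and 26.0 CPM (2.78, SE 0.42, adjusted p = 0.0213). Ifit3 stood at 620 and 279 CPM against 34.8 and 39.2 CPM. In all 4 genes replicate 1 had the higher level in members. Against Ccl21a-low resting mTEC, 15 of the 17 were higher and Ifi27 was lower. In cells of the adult cTEC libraries that did not meet the rule, Isg15 stood at 979 and 848 CPM. Iigp1 stood there at 680 and 701 CPM, Gbp2 at 268 and 134 CPM and Ifit3 at 196 and 103 CPM. High levels of Isg15, Iigp1 and Gbp2 were thus not particular to members, while Ifit3 was below its level in members.

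The promoters of this list were searched for the interferon-stimulated response element, taken as 2 copies of GAAA with 2 bases of any kind between them or, on the other strand, 2 copies of TTTC spaced alike. Promoters ran from 250 bases before to 50 bases after the start of each gene (RefSeq, GRCm38.p6). Of the 17 genes 14 were matched to a promoter, and 9 of them (64.3%) held the motif, against 437 of 11563 tested genes with a promoter (3.78%) and 1079 of all 27025 promoters (3.99%). Copies of the motif can overlap, and each promoter was counted once. The windows are shown to place the motif, in capitals, in genes that rose.
Isg15, chr4:156200867-156200892, minus strand: aggaaaccGAAACAGAAAatagctct
Ifit3, chr19:34583365-34583390, plus strand: gtggtaagTTTCACTTTCctcttctg
Ifit1, chr19:34640777-34640802, plus strand: ggcttcagTTTCACTTTCcagtctca
Gbp2, chr3:142620596-142620621, plus strand: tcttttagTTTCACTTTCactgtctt
The motif also occurred in the promoters of Bst2, Gbp3, Ifitm3, Rsad2 and Stat2. The list was drawn up from genes known to respond to interferon, so the share describes the list and would be the same whatever its genes did in members. A match describes the letters of the window and not binding in these cells.

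Immediate early genes and genes of dissociation stress were also higher. Of 20 tested, 17 were higher and none lower in members (median 1.21). Socs3, a feedback inhibitor of cytokine signalling, stood at 1074 and 753 CPM against 201 and 172 CPM (2.32, SE 0.14, adjusted p = 0.0172). Jun stood at 2622 and 1847 CPM against 601 and 505 CPM (2.05, SE 0.13), and Atf3, a transcription factor of the stress response, at 1522 and 880 CPM against 297 and 266 CPM (2.09, SE 0.21). Klf2 was higher by 1.89. The part of tissue dissociation in these differences was not tested.

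Notch genes were mostly higher. Of 12 Notch genes, 10 were higher, 1 was lower and 1 was not called (median 1.74). Hey1, a transcriptional target of Notch, stood at 38.4 and 39.5 CPM in members against 6.44 and 8.58 CPM (2.42, SE 0.20, adjusted p = 0.0172). Hes1, another target, stood at 97.3 and 95.4 CPM against 21.7 and 27.8 CPM (2.01, SE 0.18). The receptor Notch2 (1.48) and the feedback inhibitor Nrarp (1.36) were higher, and the lower gene was the ligand Dll4 (-2.22), named after its values were seen. Of 16 Wnt and BMP genes, 8 were higher, 2 lower and 6 not called (median 1.14). Among the higher genes were inhibitors of helix-loop-helix factors, with Id1 at 271 and 222 CPM against 36.1 and 44.1 CPM (2.66, SE 0.21), Id3 higher by 2.29 and Id2 by 2.10. Bmp7 stood at 75.4 and 70.6 CPM against 23.8 and 27.9 CPM (1.54, SE 0.17).

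Transcription factors known from thymic epithelium did not move one way. Of 22 tested, 8 were higher, 8 lower (3 with no library term) and 6 not called (median 0.05). Runx1 stood at 55.7 and 45.4 CPM in members against 8.20 and 11.8 CPM (2.37, SE 0.28). Meis1 (1.75) and Eya1 (1.34) were also higher. Foxn1, the master regulator of TEC identity, stood at 16.4 and 28.8 CPM against 51.2 and 51.7 CPM (-1.17, SE 0.22, adjusted p = 0.0276). Its call was lost with no library term. Nkx6-2 stood at 20.3 and 32.8 CPM against 111 and 82.4 CPM (-1.82, SE 0.28). Fezf2, which drives tissue-restricted antigens independently of Aire, stood at 210 and 236 CPM against 646 and 483 CPM (-1.28, SE 0.16, adjusted p = 0.0178). At 4000 UMIs it was read in 46.6% and 53.4% of members and in 79.1% and 71.1% of Aire-positive resting mTEC, and the part of free RNA in these shares was not tested.

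Of 10 genes put forward as markers of TEC progenitors, 5 were higher, 2 lower and 3 not called (median 0.91). Over all genes 13.04% were higher and 20.97% lower, so the lower count was near its share. Ly6a, which encodes Sca-1, stood at 1474 and 903 CPM against 186 and 309 CPM (2.31, SE 0.41, adjusted p = 0.0260). Cldn3 stood at 16.7 and 47.9 CPM against 124 and 143 CPM (-2.15, SE 0.33), and Cldn4 at 66.6 and 29.9 CPM against 137 and 115 CPM (-1.43, SE 0.28). The call of Cldn4 was lost with no library term. Plet1 stood at 50.2 and 29.6 CPM against 19.5 and 23.9 CPM and was not called (0.88, adjusted p = 0.0977). Against the Ccl21a-low resting cells 2 of the 10 were higher and 2 lower, against 12.78% and 16.95% over all genes.

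Most genes of MHC class II presentation were lower than in all other mTEC. Of 14 genes for MHC class II presentation and costimulation, 11 were lower in members (6 with no library term), none was higher and 3 were not called (median -1.05). Cd74, the invariant chain, stood at 13320 and 10980 CPM in members against 24000 and 17780 CPM (-0.72, SE 0.09, adjusted p = 0.0179). Cd80, a costimulatory ligand for CD28, stood at 5.55 and 6.31 CPM against 41.1 and 42.2 CPM (-2.76, SE 0.18, adjusted p = 0.0172). H2-Ab1, a class II beta chain, stood at 6638 and 5722 CPM against 8118 and 7265 CPM and was not called (-0.27, adjusted p = 0.0945). H2-Ob (-2.16), H2-Oa (-1.48) and Ctsh (-2.41) were lower too. Of 13 genes for class I presentation, the transporters Tap1 (1.07) and Tap2 (1.33) were higher, Psmb10 (-0.87), Psme2 (-1.13) and Psme1 (-0.43) were lower and 8 were not called (median 0.36), near the shares of 13.04% higher and 20.97% lower over all genes.

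RANK and CD40 are receptors that drive the maturation of Aire-expressing mTEC. Cd40 was lower in members and stood at 54.9 and 51.9 CPM against 237 and 151 CPM (-1.78, SE 0.17, adjusted p = 0.0172). Tnfrsf11a, which encodes RANK, stood at 61.5 and 51.5 CPM against 92.5 and 82.3 CPM (-0.58, SE 0.13, adjusted p = 0.0364), a call that was lost with DESeq2, with no library term, with a Ccl21a threshold of 0.25%, without the Aire term, with all deposited cells and with the rule's genes out of the library size. Tnfrsf11b, which encodes the RANK ligand decoy osteoprotegerin, stood at 28.0 and 17.9 CPM against 170 and 75.4 CPM (-2.30, SE 0.17). Tnfrsf1a, a receptor for tumor necrosis factor, was higher by 1.62 and the adaptor Traf1 was lower (-1.64). Over the 19 genes of this list, 5 were higher, 9 lower and 5 not called (median -0.30).

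**Figure D3:**
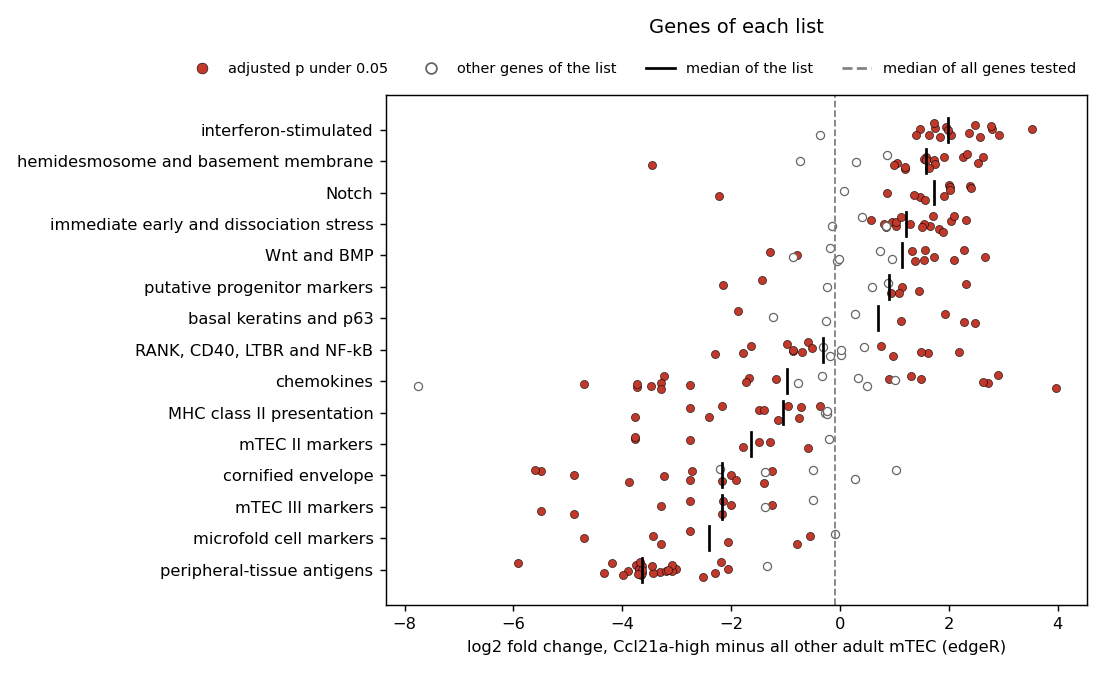
Log2 fold change of each tested gene (x axis, members minus all other adult mTEC, edgeR) in 15 gene lists (y axis), with filled points for an adjusted p under 0.05, open points for the other genes, a black bar for the list's median and a dashed line for the median of all genes tested. Interferon-stimulated genes lie almost wholly to the right of that line with a median of 1.98, and peripheral-tissue antigens lie to its left with a median of -3.64.

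Peripheral-tissue antigens were lower almost throughout. Of 27 tested, 26 were lower in members and 1, Bpifa1, was not called, with a median log2 fold change of -3.64. With no library term 8 of the 27 were called lower and the median was -3.27. Csn2, which encodes the milk protein beta-casein, stood at 25.6 and 121 CPM in members and 1251 and 953 CPM in other mTEC (-4.19, SE 0.71, adjusted p = 0.0248). Gal (-3.90), Apoa4 (-3.71) and Nts (-3.75) were lower to a like degree. The rule left out cells with an Aire UMI, so this comparison is not independent of it. Ccl21a-low resting mTEC had no Aire UMI either, and 25 of the 27 genes were lower in members than in those cells, with a median of -3.72. Markers of mTEC II, the Aire-expressing subset, summed to 1483 and 2700 CPM in those cells and to 646 and 877 CPM in members. Markers of mTEC III, the keratinized subset, summed to 876 and 1028 CPM against 66.2 and 88.1 CPM. The Ccl21a-low class thus held other mTEC subsets, and the comparison with it does not separate the antigens from the Aire term. There Csn2 stood at 972 and 697 CPM (-3.52, adjusted p = 0.00958). For Csn2 the level in members of replicate 2 was above that of replicate 1, and it lay below both libraries of the Ccl21a-low cells.

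Markers of several specialised mTEC were lower in members than in all other mTEC. Of 8 other markers of mTEC II, the Aire-expressing subset, 7 were lower, among them Cd52 (-3.76), and 1 not called (median -1.63). The rule left out cells with an Aire UMI, so this count is not independent of it. Against Ccl21a-low resting mTEC 5 of the 8 were lower (median -0.72). Of 10 markers of mTEC III, the keratinized subset, 8 were lower and 2 not called (median -2.16), and of 17 cornified envelope genes 12 were lower and none higher. With no library term the lower genes were 4 of 8 for mTEC II, 2 of 10 for mTEC III and 5 of 17 for the cornified envelope. Spink5, a protease inhibitor of the epidermis (-2.75), and Sprr1b (-3.88) were among the lower genes. Of 8 genes of microfold cells, 7 were lower (2 with no library term) and 1 not called, with Gp2 at -2.06. Tuft cell genes were mostly at low levels, and their count depended on the setting. Of 10 tested, 2 were lower, near the 20.97% over all genes, and 7 not called (median -1.52), against 8 lower with Ccl21a at 1% or more, 6 with cells thinned to 4000 UMIs and 0 with no library term. Dclk1, a kinase used as a tuft marker, was higher in members (1.41, adjusted p = 0.0207), and was not called against Ccl21a-low cells (-0.01, adjusted p = 0.99). Against Ccl21a-low resting mTEC 9 of the 10 tuft genes were lower. Against cycling mTEC no tuft, mTEC III or cornified envelope gene was called lower.

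Under the same limits on level and marker lists, the 10 genes with the largest decrease were Ccl20, Gm43569 (-4.27), Nptx2 (-4.26), Csn2, Hdc (-4.18), Rarres1 (-4.15), Gm13539 (-4.14), S100a8 (-4.10), Gm29461 (-4.10) and Psca (-4.08). Hdc, the enzyme that makes histamine, stood at 6.83 and 53.6 CPM in members against 500.5 and 354 CPM (SE 0.90, adjusted p = 0.0346). S100a8, a calcium-binding protein abundant in neutrophils, stood at 16.2 and 161 CPM against 1009 and 968 CPM (SE 0.91, adjusted p = 0.0367). Nptx2, a neuronal pentraxin, stood at 2.56 and 4.83 CPM against 104 and 52.2 CPM (SE 0.45, adjusted p = 0.0172). As for the higher genes, a call and the same sign in both libraries were terms of the choice. Replicate 2 had the higher level in members each time. Such a gap was general. The difference from other mTEC was larger in replicate 1 for 78.3% of the higher and 81.7% of the lower genes, with medians of 1.45 and 1.21 for the higher and -2.89 and -2.06 for the lower. Against Ccl21a-low resting mTEC the difference was larger in replicate 1 for 50.6% and 55.4%. The part of free RNA in the difference between the libraries was not tested.

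Of 15 genes of the G1 phase, 3 were higher (1 with DESeq2), 4 lower and 8 not called, near the shares of 13.04% and 20.97% over all genes. Among the lower genes, which include inhibitors of cyclin-dependent kinases, Cdkn2a stood at 4.48 and 7.99 CPM in members against 61.3 and 45.9 CPM (-3.05, SE 0.32), Cdkn1c at 16.9 and 30.3 CPM against 138 and 175 CPM (-2.72, SE 0.16) and Cdkn2b at 17.9 and 17.2 CPM against 55.7 and 61.3 CPM (-1.68, SE 0.16). Ccnd2, cyclin D2, was the other lower gene (-0.75). Autophagy genes Map1lc3a (1.33), Map1lc3b (1.02) and Gabarapl1 (0.58) were higher, and the other 8 of 11 proteasome and autophagy genes were not called. Among 11 S100 and annexin genes 5 were higher, with Anxa1 at 2.32, and 4 were lower, with S100a4 at -2.55 and S100a9 at -3.65.

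Markers of other cell types were at low levels in members. Summed over the list, 11 thymocyte markers reached 10.7 and 14.1 CPM, with Rag1 at 0 in both libraries, and 3 of 9 tested were lower. The 8 myeloid markers reached 18.4 and 121 CPM in members and 724 and 678 CPM in Aire-positive resting mTEC, and 7 of 7 tested were lower (2 with no library term), including Lyz2 and Fcer1g. B cell markers reached 3.84 and 12.4 CPM (Ms4a1 at 0 in both), endothelial markers 13.7 and 4.62 CPM (Cdh5 and Emcn at 0 in both) and erythroid markers 0.640 and 10.7 CPM. Neuroendocrine markers reached 11.1 and 61.2 CPM. The 8 mesenchymal markers reached 198 and 141 CPM, nearly all from Dcn at 185 and 122 CPM, which was higher than in other mTEC at 36.7 and 41.1 CPM (1.996, SE 0.25, adjusted p = 0.0179). Of 7 mesenchymal markers tested 1, Dcn, was higher, 3 were lower and 3 not called (median -2.05). Over all genes 13.04% were higher and 20.97% lower, the background for each count in this paragraph. Pdgfrb had 0 CPM in replicate 1 and 2.10 CPM in replicate 2, and Col1a2 had 0.213 and 0 CPM.

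The 10 cTEC markers summed to 2663 and 2451 CPM, most of it Ctsl. Ctsl, cathepsin L, stood at 2412 and 2013 CPM in members against 284 and 390 CPM in other mTEC (2.77, SE 0.23, adjusted p = 0.0172). Of 9 cTEC markers tested 2, Ctsl and Cxcl12, were higher, 3 were lower and 4 not called, against 13.04% higher and 20.97% lower over all genes. Tbata, another of them, stood at 150 and 287 CPM against 934 and 751 CPM (-1.96, SE 0.31). Epithelial markers summed to 5521 and 4629 CPM, with Cdh1, E-cadherin, higher by 1.11 and Cldn7 lower (-3.21). Of 8 tested 3 were higher, 3 lower and 2 not called, and none was called with no library term.

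Members were also set against each other class alone, in a fit that holds 8 sums and has 3 residual degrees of freedom. Of 14714 genes tested, 2524 (17.15%) were higher and 3943 (26.80%) lower against Aire-positive resting mTEC. Against Ccl21a-low resting mTEC 1881 (12.78%) were higher and 2494 (16.95%) lower, and against cycling mTEC 2337 (15.88%) were higher and 2214 (15.05%) lower. Against cycling mTEC the higher genes were 51.35% of the calls, and this share was 45.31% with DESeq2, 46.40% with its size factors and 42.11% with no filter on low counts, so no direction is given for that comparison as a whole. These comparisons share the sums of the members, and the other classes differed in depth, with 46854727 UMIs in the Aire-positive cells of replicate 2, 5351343 in the Ccl21a-low cells and 10360646 in the cycling cells, so the counts do not rank the classes. Krt5 was higher than in Ccl21a-low cells, at 599 and 302 CPM there, by a log2 fold change of 1.82 (adjusted p = 0.00979), Krt14 by 2.27 (adjusted p = 0.00126) and Ccl11 by 4.74 (adjusted p = 0.00356). Mgp was higher by 4.91 and Gas1 by 4.95. Of 14 class II presentation genes 6 were lower than in Ccl21a-low cells (median -0.11), 13 than in Aire-positive cells (median -1.19) and 9 than in cycling cells (median -0.69). Cd40 was not called against Ccl21a-low cells (-0.40, adjusted p = 0.14). Of 12 Notch genes 5 were higher than in Ccl21a-low cells.

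For further lists the values against each class are given side by side, and the differences between these comparisons were not tested. Of 20 immediate early genes 11 were higher than in Ccl21a-low cells, 19 than in Aire-positive cells and 19 than in cycling cells. Of 27 peripheral-tissue antigens 4 were lower than in cycling cells (median -1.35), near the share of 15.05% over all genes in that comparison. Hemidesmosome and basement membrane genes were higher than in each class, with 15, 14 and 15 of 19 against Aire-positive, Ccl21a-low and cycling cells. Ribosomal protein genes were called in both directions. Of 77 tested, 60 were higher than in Ccl21a-low cells (median 0.37), 54 were lower than in cycling cells (median -0.33) and 20 were lower than in Aire-positive cells (median -0.14). These counts depended on the fit. With DESeq2's size factors they were 54, 62 and 20, with only the 2 classes compared 21, 51 and 1, and with no library term 1, 3 and 0. Against all other mTEC 73 of 78 were not called, with a median of -0.10 that turned to 0.04 without the Aire term.

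Within the members, several genes varied with the Ccl21a share of the cell, described here with Ccl21a taken out of the total. In replicate 1 the bins of 0.5 to 1%, 1 to 2% and 2 to 4% held 51, 288 and 264 members, and in replicate 2 they held 110, 361 and 105. Mgp stood at 257, 545 and 1041 CPM in replicate 1 and at 199, 599.9 and 1041 CPM in replicate 2. Ccl11 stood at 318, 989 and 1656 CPM in replicate 1 and at 159, 304 and 339 CPM in replicate 2. Both genes increased from bin to bin in both libraries, as did Gas1, Cxcl12, Ctsl and Ifit3. The bins divide the members by the value that chose them, and these genes are ones named for being high in Ccl21a-high cells, so the bins are no independent support for that. Krt5 changed less, from 1357 to 1604 CPM and from 1047 to 1205 CPM. Fezf2 went down, from 366 to 176 CPM and from 277 to 202 CPM, and Tbata from 450 to 100.3 CPM and from 378 to 233 CPM. The lowest bin also held deeper cells, with medians of 9293 and 9134 UMIs against 7036 and 7746 in the highest of the 3, and the part of depth or of doublets was not tested.

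**Figure D4:**
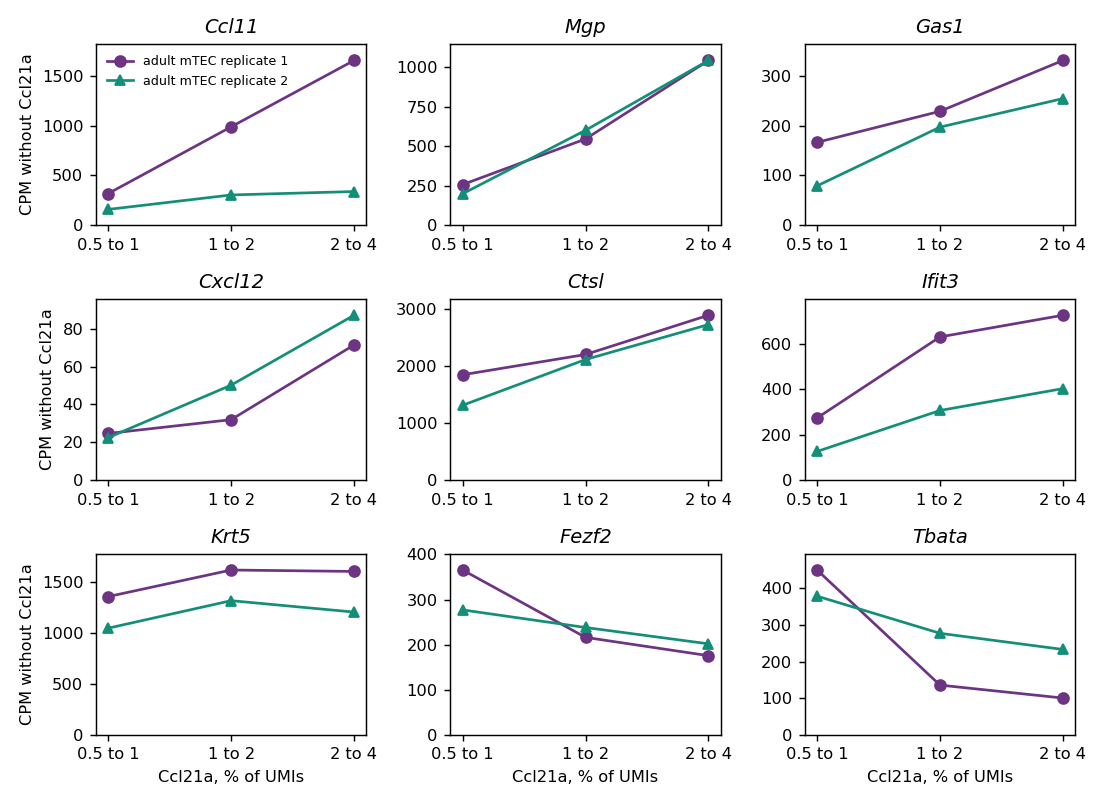
Level of 9 genes (y axis, CPM of summed UMIs without Ccl21a) in Ccl21a-high mTEC by the percentage of a cell's UMIs that were Ccl21a (x axis, 3 bins), with a line per library. Ccl11, Mgp, Gas1, Cxcl12, Ctsl and Ifit3 increase from the lowest to the highest bin in both libraries while Fezf2 and Tbata decrease.

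The members were clustered within each library, as a description with no test. Replicate 1 gave 3 clusters of 227, 194 and 192 cells. The first was led by Ly6d, Krtdap, Dmkn and Ccl5, the next by Rasl11a, Mgp, Gpx3 and Igfbp2, and the last by Tbata, Bpifa1 and Nkx6-2, with the proliferation genes Pclaf, Cenpa and Stmn1 also among its 10 leading genes. In that last cluster, 31.3% of the members of replicate 1, Ccl11 stood at 200.8 CPM against 1770 CPM in the other members, Krt14 at 1444 against 3392 CPM and Krt5 at 1338 against 1676 CPM. Replicate 2 gave 4 clusters of 155, 154, 154 and 114 cells, led by Sprr2a3, Chil3 and Rasl11a, by Ccl11, Krtdap and Serpinb5, by Ghrl, Cela2a and Krt24, and by Rbm24, Smoc2 and Cxcl14. In the cluster led by Ghrl, Ccl11 stood at 55.2 CPM against 371 CPM in the other members and Krt14 at 1215 against 2351 CPM. Krtdap and Serpinb5 stood together among the 10 leading genes of 1 cluster in each library, and so did Rasl11a and Gm12216. The clusters were left unnamed.

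Cells that meet the same rule were also found in the adult cTEC gate (Ly51+ UEA-1-), with 95 of 507 cells (18.7%) in replicate 1 and 20 of 535 (3.74%) in replicate 2. With so few cells no test was made. Ccl21a stood there at 29400 and 31960 CPM, and in members of the mTEC gate at 19300 and 14980 CPM. Krt5 stood at 628 and 563 CPM in these cells, above the other cells of the cTEC gate (217 and 137 CPM) and below the members of the mTEC gate. Krt14 stood at 307 and 544 CPM, against 281 and 184 CPM in the other cells of the cTEC gate, so in replicate 1 it was near their level. Psmb11 stood at 156 and 169 CPM and Prss16, a serine protease of cTEC, at 547 and 788 CPM, both below the other cells of the cTEC gate (786 and 1428 CPM, and 1884 and 3114 CPM) and far above the members of the mTEC gate. Of the 10 genes with the largest increase in members 9 went the same way in each cTEC library when these cells were set against the other cells of that gate. Some did so on few UMIs, such as 2 for Scx and 4 for Fst in replicate 2. The share over all genes was not counted, so this number has no background to be read against. Over 2830 and 2686 genes, log2 levels in these cells had r of 0.938 and 0.891 with the other cells of the cTEC gate, which share their library. With the members of the mTEC gate r was 0.815 and 0.823, and with the other mTEC 0.698 and 0.714. These values are a description, since genes are not independent. In the other cells of the cTEC gate Mgp stood at 606 and 485 CPM and Jun at 3657 and 1650 CPM. Trp63 stood there at 223 and 90.8 CPM, above the members of the mTEC gate. High levels of Mgp, Jun and Trp63 were thus not particular to members. Ccl11, at 5.93 and 4.07 CPM, and Fst, at 18.9 and 25.4 CPM, were low there.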

How the data were processed

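Adult mTEC were measured by droplet 3' single-cell RNA sequencing (Chromium v2), as part of 8 libraries. The deposited values are UMI counts per gene and cell. Per the labels, the authors made them with Cell Ranger 2.0.1 (STAR 2.5.1b, bcl2fastq 2.17) against mm10. Per the file headers, the adult mTEC matrix of replicate 2 names software version 3.0.1 and that of replicate 1 names none. The deposited matrices hold called cells. Gene lists differed between the 2 data sets, so the 27514 shared genes were used. Members, gene lists and comparisons were chosen with earlier results of these data known. Counts were summed per class and library and tested with edgeR 4.0.16 (TMM, quasi-likelihood) in R 4.3.3, with library as a block, since each library gives every class. Genes of the rule and copies of Ccl21 (6 genes) had no test. edgeR's steps were tested on simulated data. Summed depth of members was 4684582 and 4757349 UMIs. Replicate numbers only name the libraries.

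Genes named were the markers, for each list those with the largest change past an adjusted p of 0.05 and average log2 CPM above 4 (at most 4), 12 genes chosen for their role in mTEC, and the 10 leading genes in each direction with average log2 CPM above 5 and the same sign in both libraries, leaving out rule genes and markers of non-epithelial cells. Others (among them Ifit1, Krt8, Krt23, Psme1, Nid1, Dll4 and Psmb11) were named after their values were seen. Scrublet marked 3 of 1586 and 2 of 5615 cells as doublets, too few to have worked, and no doublets were removed. DESeq2 1.42.0, RLE scaling, no filter on low counts, other thresholds, no library block, thinned cells and the deepest 10% of cells left out (chosen after seeing the data) were alternatives. Clusters came from scanpy 1.11.5 (2000 variable genes, 20 components, 20 neighbours, resolution 0.5). Tests were made over libraries, with cells never taken as replicates, and the exact intervals over cells cover counting error only.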

Additional observations from a re-analysis of the deposited data

Results flagged for a closer look

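Cells that meet the rule for Ccl21a-high mTEC also appeared in libraries that the comparisons of adult mTEC did not use. Each library held more of them than a count of 0 allows, which says only that such cells were counted and nothing about background. The adult cTEC gate held them at 18.74% in replicate 1 (95 of 507 cells) and 3.738% in replicate 2 (20 of 535 cells). The E13.5 TEC library, sorted before the cTEC and mTEC markers separate, held 4.291% (85 of 1981 cells). The fetal and newborn cTEC libraries held few, with 0.224% at E15.5 (8 of 3571 cells), 0.8263% at E17.5 (69 of 8350 cells) and 1.11% in the newborn (NB) cTEC library (40 of 3605 cells). These cells had a median Ccl21a share of 2.19% and 3.23% in the adult cTEC gate and of 1.12% in the E13.5 TEC library. In the younger cTEC libraries the median was nearer the threshold, with 0.608% (E15.5), 0.849% (E17.5) and 0.688% (NB). The difference between the libraries was not tested.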

How the results depend on the processing

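No named gene past the threshold changed sign under the alternatives that were run. Of those not called, Ccl19 (-0.32) was at 0.01 without the Aire term, and Krt15 (-0.26) was at 1.05 with the threshold at 0.25% and at 0.29 without replicate 2. The median over cTEC markers went from -0.50 to 0.31 at 0.25%, that over thymic transcription factors from 0.05 to -0.07 with the deepest 10% of cells left out, that over G1 genes from 0.01 to as low as -0.12 with thinned cells, and that over ribosomal protein genes from -0.10 to 0.04 without the Aire term. Against cycling mTEC the share of higher genes among calls ran from 42.11 to 54.88%. Against all other mTEC, 5111 genes were called, against 3259 with DESeq2 and 3237 with no replicate block (no library term). Without that block, 3907 genes were called against Aire-positive (6467 with the block), 2023 against Ccl21a-low (4375) and 2786 against cycling mTEC (4551). The remaining counts against other mTEC lay within 1.5 times, from 4260 (thinned cells) to 6223 (other Ccl21a-high cells left out, an alternative chosen after seeing the data). Without the block, 8 peripheral-tissue antigens were called lower against 26 with it, 5 cornified envelope genes against 12, 2 myeloid and 2 microfold markers against 7 each, 6 MHC class II genes against 11, 3 chemokines against 11, 3 thymic transcription factors against 8, 2 mTEC III markers against 8 and 4 mTEC II markers against 7. No epithelial marker was then called, against 3 higher and 3 lower with the block. Counts of several smaller lists also fell by more than 1.5 times, among them simple keratins, S100 and annexins, G1, mesenchymal, neuroendocrine, progenitor and tuft genes. Among named genes Hdc, S100a8, Cd74, Cldn4 and Cd52 then missed the threshold, as did the epithelial markers Foxn1, Cdh1, Cldn7 and Krt18. This list of named genes is not complete. Tnfrsf11a missed it with DESeq2, with no library term, with the threshold at 0.25%, without the Aire term, with all deposited cells and with the rule's genes out of the library size. Of 127 named genes 123 were past the threshold, and of their values under alternatives 1797 were the same, 89 weaker, 17 moved and 2 stronger (Ccl19 and Plet1).

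The share of members was 35.44% in replicate 1 with the Ccl21a threshold at 1% and 42.94% without the Aire term. In replicate 2 it was 11.13% at 0.25%, 8.317% at 1%, 20.16% without the Aire term and 9.383% with all deposited cells. The median over all genes shifted by 0.159 without the Aire term and by 0.111 with all deposited cells. Leaving out 1 library left no residual degrees of freedom, so only each library's own fold change could be given, and no named gene past the threshold changed sign. The precision is limited by 2 libraries and by 1 residual degree of freedom.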
